A study of Drosophila melanogaster with 31 samples.

Results

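The 738 regions described here ranked among the strongest 5000 of every peak list of the series, from the blastoderm to late embryogenesis. They did so with or without the transcription factor Grainy head (Grh). They were selected on measured values. In each of the 12 lists overlapping rows were joined into regions and ranked by their highest −log10 q, so that rank 1 is the strongest region, and a region of the grhM+ list at stage 6 was kept when it lay on chromosome 2 or 3, was among the strongest 5000 of its own list and overlapped, by at least 1 bp, 1 of the strongest 5000 of each of the other 11 lists. Of the 34315 regions of the grhM+ stage 6 list on these chromosomes, 4190 were among its strongest 5000, and 738 of those (17.6%) met the rule. The 12 lists held 510625 regions in all. Chromatin accessibility was measured by ATAC-seq, in which a transposase cuts open DNA and inserts sequencing adapters, in whole Drosophila melanogaster embryos from 31 samples.

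The grhB37 allele is a null allele of grh, a gene on chromosome 2. grhM− embryos came from mothers with grhB37 germline clones made with FLP and FRT and lacked maternal Grh, and grhM+ embryos were their siblings with maternal Grh. Both were single embryos at stage 5, the cellular blastoderm, and at stage 6, the start of gastrulation, with 3 embryos a group. grhB37/B37 embryos lacked zygotic Grh and were compared with grhB37/+ siblings, as single embryos at stage 6 with 3 a group, and as 1 sample of pooled embryos of each genotype at 11-12 h after egg laying. The heterozygous siblings therefore carried 1 mutant copy of grh. grhM−Z− embryos, homozygous for grhB37 and without maternal Grh, were compared with grhM+Z+ embryos, which had maternal Grh and the genotype grhB37/+, as single embryos with 3 a group, except for 2 grhM+Z+ embryos at stage 6. The early lists came from paired-end reads with longer fragments removed, and the lists of 11-12 h from single-end reads without that selection, so that age and protocol cannot be told apart between them. A list is called mutant here when its embryos lacked maternal, zygotic or both kinds of Grh.

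Open regions at gene starts in Drosophila fall into broad kinds. Promoters of genes used in every cell often carry the DRE, bound by DREF, or motif 1, bound by M1BP, and many patterning promoters carry GA repeats bound by GAGA factor, the product of Trl. Zelda is the factor that opens chromatin when the zygotic genome is first used. The homeotic (Hox) genes, which give body segments their identity, lie in the Antennapedia and bithorax complexes, where Polycomb response elements hold sites for GAGA factor and for Pleiohomeotic (Pho), whose sites have a GCCAT core. Grh is best known for its role in epidermis, and its canonical site is AACCGGTT or AACTGGTT.

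The sequences below hold the strongest summit of 15 of the regions and the 50 bases on each side of it, from the dm6 genome as given by RefSeq, plus strand, 5′ to 3′. The first 4 are the bithorax regions with the best worst rank over the 12 lists among those with a GCCAT string, shown because the complex held 10 of the regions, and capitals mark GAGAGAG and GCCAT on either strand. They are a region in an intron of lncRNA:bxd (chr3R:16764061-16764161), one in an intron of Ubx (chr3R:16702996-16703096) and 2 in the introns of lncRNA:iab8 (chr3R:16869474-16869574 and chr3R:16857648-16857748).
bxd: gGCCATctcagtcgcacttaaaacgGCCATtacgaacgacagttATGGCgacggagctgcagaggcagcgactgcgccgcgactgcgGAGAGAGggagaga
Ubx intron: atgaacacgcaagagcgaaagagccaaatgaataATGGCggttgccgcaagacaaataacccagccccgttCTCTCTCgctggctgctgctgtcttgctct
iab8, Abd-B side: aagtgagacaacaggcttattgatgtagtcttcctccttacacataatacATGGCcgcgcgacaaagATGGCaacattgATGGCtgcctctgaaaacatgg
iab8, abd-A side: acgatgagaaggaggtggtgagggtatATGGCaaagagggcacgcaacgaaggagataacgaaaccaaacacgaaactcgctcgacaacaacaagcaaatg

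Outside the bithorax complex the next 3 windows carry the GAGA string in capitals, upstream of bnl (chr3R:19836877-19836977), the ligand of the tracheal FGF receptor, upstream of the Hox gene Dfd (chr3R:6791707-6791807), and in an intron of Con (chr3L:4976311-4976411), a cell adhesion protein. The following 3 carry, in capitals, the motif 1 core GGTCACAC or the DRE TATCGATA, at mub (chr3L:21879355-21879455), at Abl (chr3L:16647859-16647959), a tyrosine kinase, and between CG14292 and EndoA (chr3R:18906516-18906616), endophilin A. For each string the windows were taken in the order of the worst rank, 1 with the motif 1 core and 2 with the DRE, and windows with more than 30 bases of untranslated exon were left out.
bnl: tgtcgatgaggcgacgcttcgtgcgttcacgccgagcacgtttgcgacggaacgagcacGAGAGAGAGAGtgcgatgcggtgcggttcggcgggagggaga
Dfd: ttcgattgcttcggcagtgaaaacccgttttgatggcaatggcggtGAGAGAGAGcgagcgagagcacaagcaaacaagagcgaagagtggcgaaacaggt
Con: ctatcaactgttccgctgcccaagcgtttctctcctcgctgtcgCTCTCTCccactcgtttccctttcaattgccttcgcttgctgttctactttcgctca
mub: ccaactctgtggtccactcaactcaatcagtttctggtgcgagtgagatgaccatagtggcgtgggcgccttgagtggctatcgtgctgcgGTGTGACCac
Abl: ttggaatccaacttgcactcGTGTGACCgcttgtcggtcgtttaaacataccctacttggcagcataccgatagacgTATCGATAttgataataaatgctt
CG14292/EndoA: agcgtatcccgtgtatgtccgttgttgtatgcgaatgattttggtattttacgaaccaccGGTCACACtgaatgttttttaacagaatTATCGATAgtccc

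The last 5 windows carry the Grh site in capitals and are shown because the lists compare embryos with and without Grh. They lie at trn (chr3L:13114023-13114123), a leucine-rich repeat membrane protein, ems (chr3R:13901741-13901841), a head gap homeobox gene, vvl (chr3L:6789985-6790085), a POU domain factor, salm (chr2L:11445641-11445741), a zinc finger factor, and tey (chr3L:19663752-19663852).
trn: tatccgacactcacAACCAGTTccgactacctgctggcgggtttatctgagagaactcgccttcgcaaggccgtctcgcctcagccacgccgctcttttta
ems: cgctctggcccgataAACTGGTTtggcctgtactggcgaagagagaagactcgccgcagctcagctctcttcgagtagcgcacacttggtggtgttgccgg
vvl: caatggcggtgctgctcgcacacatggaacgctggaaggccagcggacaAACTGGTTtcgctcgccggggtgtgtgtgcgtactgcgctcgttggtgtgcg
salm: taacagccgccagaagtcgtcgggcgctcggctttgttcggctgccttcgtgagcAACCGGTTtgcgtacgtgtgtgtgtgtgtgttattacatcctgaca
tey: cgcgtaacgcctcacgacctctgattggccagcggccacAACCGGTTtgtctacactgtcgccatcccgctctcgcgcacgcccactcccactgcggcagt

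All coordinates are of dm6. The rule narrowed the set in steps. Of the 4190 regions, 1759 were strong in all 10 early lists. 1056 of these were also strong in grhB37/+ at 11-12 h, 799 were also strong in grhB37/B37 at 11-12 h, and 738 (42.0%) in both. The 1021 regions that were strong in the 10 early lists and not in both late lists serve below as the early-only regions. The 738 regions were spread over the 4 chromosome arms in similar shares of the strongest regions, with 154 of 897 on 2L, 177 of 1018 on 2R, 171 of 1051 on 3L and 236 of 1224 on 3R. Neighbouring regions lay a median of 84986 bp apart, and 21 of the 734 gaps were no longer than 5000 bp.

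The regions were in the upper part of each list, since the rule required it, and by their median rank furthest down in grhB37/B37 at 11-12 h. At stage 5 their median rank was 1052 in grhM−, 1316 in grhM+, 1006 in grhM−Z− and 1048 in grhM+Z+. Across the 6 stage 6 lists the median rank ran from 967 in grhM+ to 1187 in grhB37/B37. At 11-12 h it was 1784 in grhB37/B37 and 1286 in grhB37/+. These ranks chose the regions, so they describe them and are not tested. The number of fragments at the summit, solved from the deposited fold enrichment and −log10 p, had a median of 78 to 145.5 per region in the stage 5 lists, 77 to 408 in the stage 6 lists, and 51 and 81 in the late lists of grhB37/B37 and grhB37/+. These numbers were not scaled between lists, and both the depth and the enrichment of a list enter them: the median fold enrichment of the regions was 6.29 to 11.3 in the early lists and 2.93 and 4.04 in the late lists. In the grhM−Z− and grhM+Z+ lists, which keep embryos apart, ranks, summits and fragments are those of the embryo with the strongest row. In the other early lists they are of pooled embryos. The strongest 5000 reached down to a −log10 q between 18.3 and 136 in the early lists, and to 10.3 in grhB37/+ and 4.16 in grhB37/B37 at 11-12 h, so the late limit was the more lenient. The late lists were also shorter, with 20540 regions in grhB37/+ and 10509 in grhB37/B37, against 31898 to 81187 in the early lists. The strongest 5000 were therefore a larger part of the late lists.

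**Figure D1:**
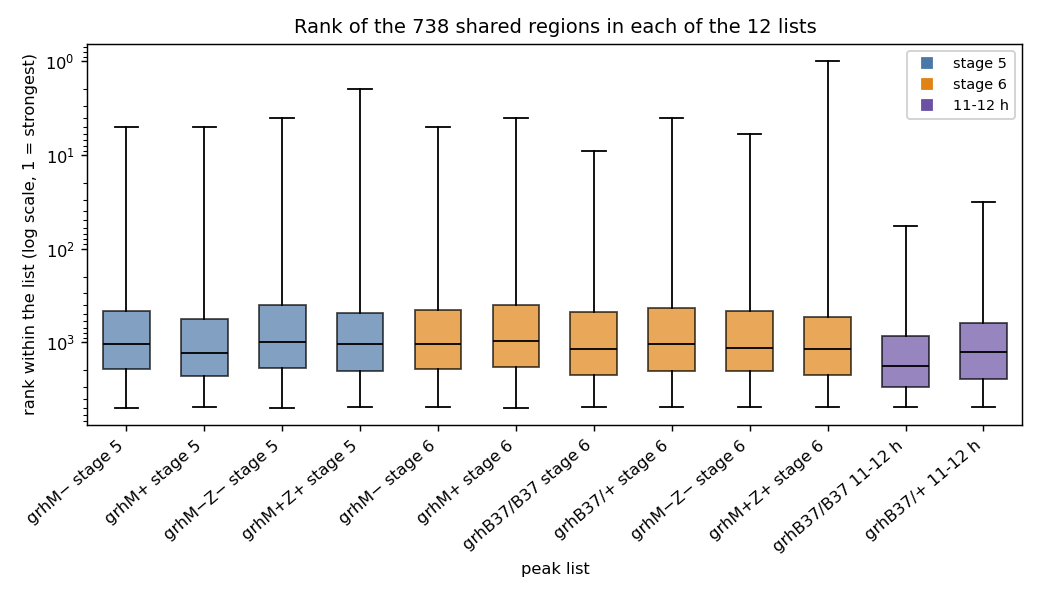
Rank of the 738 shared regions within each of the 12 peak lists (x axis), on a log scale with rank 1 at the top (y axis). Boxes span the quartiles with the median as a line, whiskers reach the lowest and highest rank, and the medians of the early lists lie between 967 and 1316 while those of 11-12 h are 1784 and 1286.

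A strong region was seldom equally strong everywhere. The ratio of a region's worst to its best rank had a median of 12.1 over the 12 lists and 8.27 over the 10 early lists. In 26 regions the worst rank was within 1000 and in 130 within 2000, whereas in 251 it was over 4000. The worst rank fell in a late list for 280 regions (37.9%), in 192 of them in grhB37/B37. At the edge of the rule, the 5 regions just inside had worst ranks of 4997 (CG42495), 4990 (CG14657), 4984 (CG32486/PAN3), 4982 (jar) and 4977 (Not1), and the 5 just outside had worst ranks of 5004 (CG10413/CG31789), 5005 (Lac), 5009 (lqf), 5010 (CG14971/CG32267) and 5012 (Hmu/bigmax).

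The 10 regions with the best worst rank lay at CG1142 and snRNA:7SKa, Rac2, caup, lncRNA:bxd, Axn with Mgat2 and RpS28a, bnl, Dfd, apt, hid and Fili. The region over snRNA:7SKa (chr3R:7474332-7475141), which encodes the RNA that holds P-TEFb inactive, ranked 54, 313, 75 and 131 in grhM−, grhM+, grhM−Z− and grhM+Z+ at stage 5, between 33 and 106 at stage 6, and 58 and 73 in grhB37/B37 and grhB37/+ at 11-12 h. All 12 ranks of this region were within the strongest 313. The region in an intron of lncRNA:bxd (chr3R:16763725-16764533), in the bithorax complex, ranked 18, 19, 21 and 76 at stage 5, and 173, 114, 229, 124, 128 and 97 at stage 6 in grhM−, grhM+, grhB37/B37, grhB37/+, grhM−Z− and grhM+Z+. It ranked 544 in grhB37/B37 and 53 in grhB37/+ at 11-12 h, with 66 and 129 fragments at the summit. Its 4 stage 5 ranks were all ahead of its 6 stage 6 ranks.

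Upstream of Dfd, the Hox gene of the posterior head, the region ranked 52, 667, 316 and 40 at stage 5, and 61, 135, 361, 264, 79 and 308 at stage 6. It ranked 223 in grhB37/B37 and 40 in grhB37/+ at 11-12 h, and the ranks of the stages overlapped. At bnl the 10 early ranks ran from 16 to 56 and the late ranks were 657 and 219, so every early list was ahead of both late lists. At caup (chr3L:12609280-12609879), a homeobox gene of the Iroquois complex, the stage 5 ranks were 49, 50, 68 and 199, the stage 6 ranks ran from 37 to 323, and the late ranks were 441 and 44. The region at hid (chr3L:18185543-18186449), a cell death activator, ranked between 91 and 720 in the early lists and 606 and 168 in the late lists.

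The regions were mostly at gene starts. The strongest summit in grhM+ at stage 6 lay within 1 kb of an annotated start site in 661 of the 738 regions (89.6%, 95% Clopper-Pearson interval 87.1 to 91.7), against 79.4% (76.8 to 81.9) of the early-only regions and 74.9% (73.5 to 76.2) of the strongest 4190. The intervals cover counting error only, and the difference in share was not tested. In the 661 regions at gene starts the summit sat a median of −45 bp from the nearest start site, that is upstream of it. Over all 738 regions the summit fell between genes in 345, in an intron in 227, in a 5′ UTR in 127, in a noncoding exon in 27, in a coding exon in 7 and in a 3′ UTR in 5. Start sites on both strands lay within 1 kb in 39.5% (35.7 to 43.3) of the regions at gene starts, against 48.0% (44.5 to 51.5) of the early-only regions at gene starts. The regions were wider, with a median of 761.5 bp against 719 bp in the early-only regions and 636 bp in the strongest 4190. A wider region meets the overlap rule more easily, and the part of this in the widths was not tested.

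The genes at the regions were long. The 661 regions at gene starts served 993 genes, 836 of them protein-coding, and the protein-coding genes had a median length of 5962 bp, against 3275 bp at the early-only regions and 3458 bp at the strongest 4190. No test was made of this difference, and neighbouring genes can share a region. Abd-B, EcR, which encodes the ecdysone receptor, MSAmiP, grh and tara each held 3 of the regions within the gene. The 77 regions over 1 kb from any start site had a median rank of 1300 at stage 5, 1340 at stage 6 and 1241 at 11-12 h, against 1120, 1090 and 1732 for those at gene starts. The farthest lay 39409 bp from CG41128, 22805 bp from mir-4944 in an intron of hth, 17081 bp from asRNA:PS4 in an intron of Ubx, 16895 bp away in an intron of CG5888 and 15035 bp away in an intron of dsx.

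Genes that pattern the embryo were often among the 993. Of the 15233 genes on chromosomes 2 and 3, 6.52% had a start site within 1 kb of the summit of a shared region and 29.2% of a strongest region. Of the segment polarity genes, which hold the anterior and posterior sides of each segment apart, 5 of 7 were at a shared region (en, hh, mid, ptc and wg). So were 5 of 8 Hox genes (Abd-B, Antp, Dfd, abd-A and lab), 4 of 7 pair-rule genes (eve, odd, slp1 and slp2), 3 of 11 dorsal-ventral genes (dpp, sna and tup) and 1 of 5 gap genes (Kr). The lists are small and are described by these counts alone. Every segment polarity, Hox and gap gene listed was at a strongest region of grhM+ at stage 6.

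The patterning genes differed in when they were strong. At en (chr2R:11527778-11528491), the homeobox gene of the posterior compartment, the stage 5 ranks were 704, 2182, 564 and 414, the stage 6 ranks ran from 1718 to 3213, and the late ranks were 923 in grhB37/B37 and 163 in grhB37/+. At wg (chr2L:7306798-7307310), the Wnt ligand, they were 356, 165, 192 and 385 at stage 5, 382 to 2477 at stage 6, and 1437 and 427 at 11-12 h. At Kr (chr2R:25226240-25226812), a gap gene zinc finger factor, the stage 5 ranks were 75, 436, 330 and 971, the stage 6 ranks ran from 87 to 1088, and both late ranks, 4256 and 4134, were behind every early rank. At abd-A (chr3R:16829894-16830729) the early ranks ran from 681 to 4301 and both late ranks, 560 and 284, were ahead of all of them. Over the 18 regions of the 5 patterning lists the median rank was 620.5 at stage 5, 994.8 at stage 6 and 945.5 at 11-12 h. Over all 738 regions it was 1132, 1109 and 1687. A better median rank late than early was found in 9 of the 18, against 271 of the 738. The ranks were part of the rule and the late lists have 1 sample a genotype, so these counts are a description.

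As shares of all genes of a list, the ribosomal protein, proteasome, translation initiation factor and Mediator genes were present in smaller shares than the patterning lists. Of the cytoplasmic ribosomal protein genes, 10 of 77 were at a shared region and 49 at a strongest region, and the 10 were 20.4% of the 49, near the 22.4% over all genes at a strongest region. At a shared region were also 2 of 62 mitochondrial ribosomal protein genes, 3 of 42 proteasome genes, 6 of 36 translation initiation factors and 2 of 22 Mediator genes. They were 6.25%, 17.65%, 30% and 11.76% of the genes of each list at a strongest region. For the segment polarity, Hox, pair-rule, dorsal-ventral and gap lists these shares were 71.43%, 62.5%, 66.67%, 33.33% and 20%. By this measure the gap genes, 1 of 5, stood below the initiation factors and near the 22.4% over all genes. Of the chromatin and insulator factors 17 of 20 were at a strongest region and only Psc, a Polycomb group protein, was at a shared one. The cell cycle list gave polo of 16 genes, the heat shock list DnaJ-1 of 24, the Notch and E(spl) list E(spl)m7-HLH of 15, and the 16 tubulin and actin genes and 7 epidermal barrier genes gave none. Over the 23 regions of the ribosomal, proteasome, initiation factor and Mediator lists the median rank was 1184 at stage 5, 1109 at stage 6 and 2070 at 11-12 h. A better median rank late than early was found in 3 of the 23, against 271 of all 738 regions. These counts too are a description, since the ranks were part of the rule. Of the genes that the study named at accessible loci, 3 of 12 were at a shared region (D, grh and lbe).

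**Figure D2:**
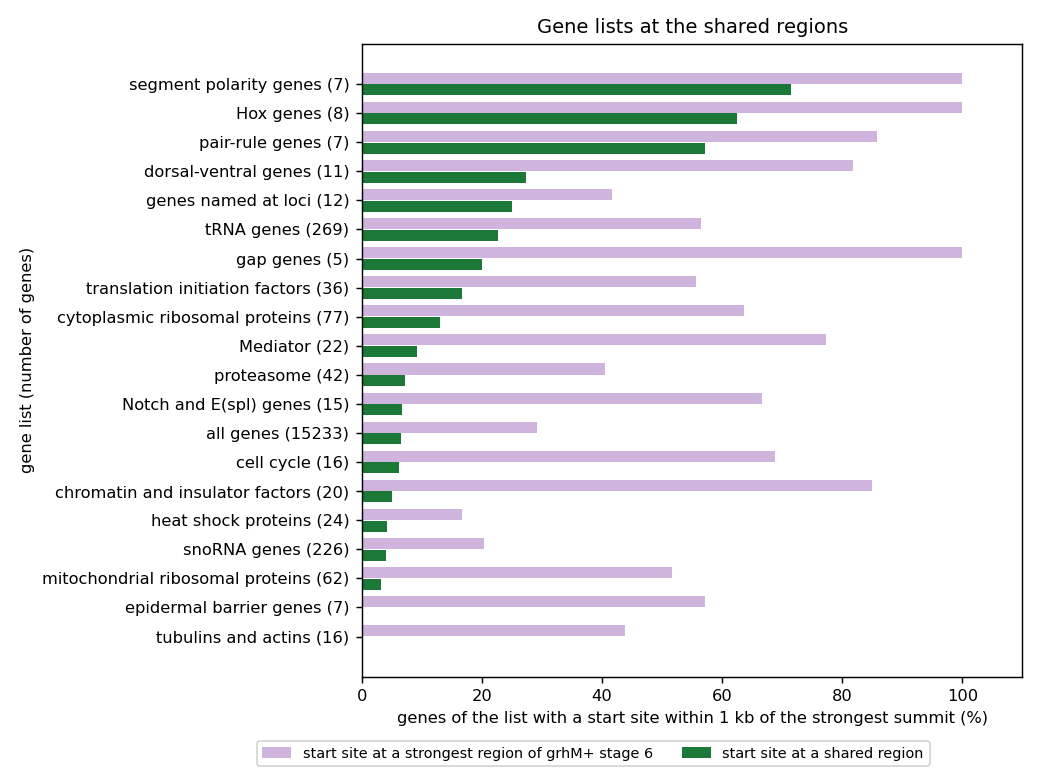
Share of each gene list (y axis, number of genes in brackets) with a start site within 1 kb of the strongest summit of a strongest region of grhM+ at stage 6 (violet) or of a shared region (green), in percent (x axis). The segment polarity, Hox and pair-rule lists had the highest shares at shared regions, 5 of 7, 5 of 8 and 4 of 7 genes, against 6.52% of all genes.

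Of the lists, the tRNA genes gave the most genes. Start sites of 61 of 269 tRNA genes (22.7%) lay within 1 kb of a shared region, and these 61 genes shared 28 regions. Their median rank was 1012 at stage 5, 1623 at stage 6 and 1091 at 11-12 h. The snoRNA genes gave 9 of 226. Reads that aligned to several places had been removed, so the values at repeated genes such as tRNA genes, snRNA:7SKa, the histone genes and the lncRNA:alphagamma-element between Hsp70 copies are uncertain.

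The bithorax complex held 10 of the regions. It spans 315.6 kb on 3R from Ubx to Abd-B, and 28 of its 128 regions in grhM+ at stage 6 were among the strongest, so that 10 of 28 met the rule. The Antennapedia complex, 337.8 kb from lab to Antp, held 4 of its 31 strongest regions. This look at the complexes, and the GCCAT string, were chosen after the values were seen. The bithorax regions lay within Ubx, lncRNA:bxd, abd-A, lncRNA:iab8 (3 regions) and Abd-B (3 regions, of which 1 was at a start site), and next to abd-A. The Ubx intron region ranked 81, 154, 572 and 165 at stage 5, 151, 206, 618, 723, 302 and 352 at stage 6, and 563 in grhB37/B37 and 41 in grhB37/+ at 11-12 h. In all 10 the grhB37/+ rank at 11-12 h was ahead of the grhB37/B37 rank, as it was in 66.3% of the 738, with 1 sample a genotype and no replicate check.

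In 9 of the 10 bithorax regions GCCAT lay within 50 bp of the summit on either strand, and 3 held GAGAGAG as well. Of the other 18 strongest regions of the complex 10 held GCCAT, with intervals of 55.5 to 99.8% and 30.8 to 78.5% that overlap. In the complex as a whole 39.1% of 128 regions held it, against 21.8% of all regions on chromosomes 2 and 3. The bxd window printed above held 3 GCCAT strings, the Ubx intron window 1 and the iab8 window on the Abd-B side 3. A match of these letters is a description of the sequence and not a binding site.

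GA repeats were more frequent in the 738 regions than in the other sets, a difference that was not tested. GAGAGAG, on either strand and within 50 bp of the summit, was present in 125 of 738 regions (16.9%, 14.3 to 19.8), in 8.23% (6.62 to 10.1) of the early-only regions, in 9.81% of the strongest 4190 and in 4.70% of all 34315. Far from gene starts it was in 25 of 77 regions (32.5%, 22.2 to 44.1), against 11.2% (9.36 to 13.3) of the 1053 strongest regions over 1 kb away, and at gene starts in 15.1% (12.5 to 18.1) against 9.34% (8.34 to 10.4). Both GAGAGAG and GCCAT were present in 24 regions (3.25%, 2.095 to 4.8), against 1.27% (0.6797 to 2.167) of the early-only regions. These intervals overlap. Whether the strings occurred together more often than their separate shares would give was not tested. When regions were ranked by fold enrichment the share with GAGAGAG was 13.5%. The median share of G and C in the window was 51.5% in the shared regions and 48.5% in the strongest 4190, and its part in these shares was not tested. GAGAGAG reads the same backwards, so a reversed string was no control for it.

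The strings of housekeeping promoters were rarer than in the early-only regions. The motif 1 core was in 48 regions (6.50%, 4.83 to 8.53) against 13.2% (11.2 to 15.5) of the early-only regions, and the DRE in 19 (2.58%, 1.56 to 3.99) against 5.19% (3.91 to 6.74). The Zelda string CAGGTAG was in 15 (2.03%, 1.14 to 3.33) against 7.05% (5.56 to 8.80). The BEAF-32 string CGATA, which the DRE contains, was in 19.4% (16.6 to 22.4) against 26.4% (23.7 to 29.2). The motif 1, Zelda, CGATA and GAGA intervals of the shared and early-only regions did not overlap, and those of the DRE did. The E-box CAGCTG was in 8.67% of the shared regions against 8.91%, and TATAAA in 2.98% against 4.51%. Among the strongest 4190 the shares of the motif 1 core, DRE and Zelda strings were 7.92%, 4.46% and 3.39%. Among all 34315 regions they were 1.89%, 1.655% and 1.96%, so the shared regions held the motif 1 core more often than all regions did. In reverse, the motif 1, DRE, Zelda, Grh, E-box and CGATA strings were in 1.63%, 0%, 0.678%, 0.678%, 2.03% and 15.3% of the shared regions. Reversed TATAAA was in 7.72%, more than TATAAA itself, and GCCAT was in 21.0% and its reversed string in 15.3%.

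**Figure D3:**
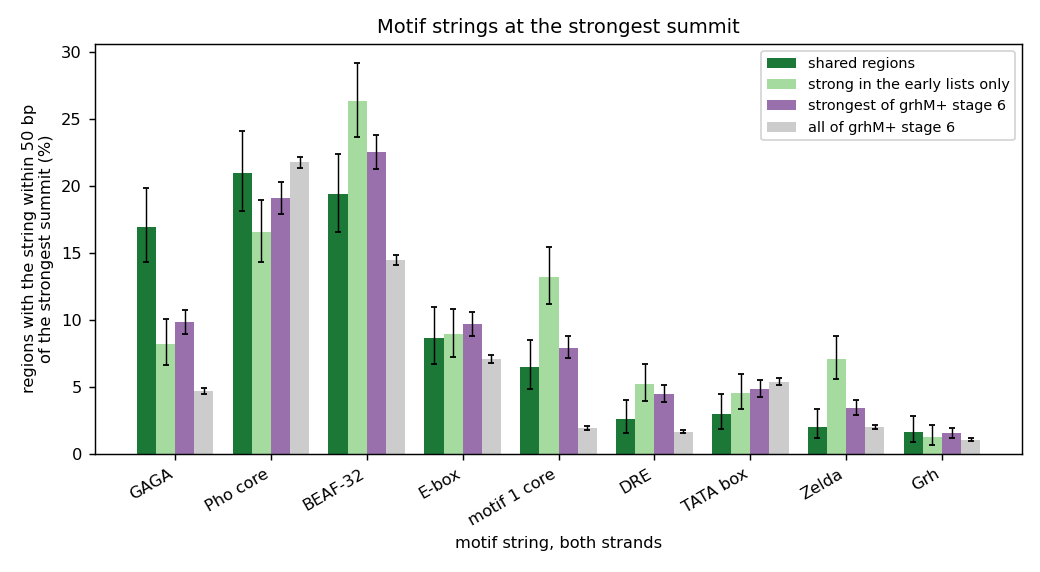
Share of regions with each motif string on either strand within 50 bp of the strongest summit (y axis, percent) for the 738 shared regions, the 1021 early-only regions, the 4190 strongest regions and all 34315 regions of grhM+ at stage 6. Bars start at 0, error bars are exact 95% intervals, and GAGA stands at 16.9% in the shared regions against 8.23% in the early-only regions, while motif 1 stands at 6.50% against 13.2%.

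Median ranks at 11-12 h also differed between regions with different strings. The ranks were part of the rule, so these medians describe the regions and were not tested. The 125 regions with GAGAGAG had a median rank of 1159 at stage 5, 1163 at stage 6 and 1336 at 11-12 h. The 63 with a DRE or motif 1 core and no GAGAGAG had 1214, 1040 and 2514, and the 550 with neither had 1117, 1110 and 1650. In grhB37/B37 at 11-12 h the medians of the 3 classes were 1363, 2826 and 1780, and in grhB37/+ they were 1093, 1987 and 1279. Both late lists helped to choose the regions and each rests on 1 sample, so their shared order is no independent check. Age and sequencing protocol cannot be told apart here. Only 1 region held both GAGAGAG and a DRE or motif 1 core. Protein-coding genes at the GAGA regions had a median length of 9849 bp, against 5078 bp at the DRE or motif 1 regions. Start sites on both strands lay within 1 kb in 15.2% of the GAGA regions and 54.0% of the DRE or motif 1 regions.

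The Grh strings were rare in all sets of regions. AACCGGTT or AACTGGTT was within 50 bp of the summit in 12 regions (1.63%, 0.843 to 2.82), against 1.27% of the early-only regions and 1.53% of the strongest 4190. At trn, whose window is printed above, the ranks were 133, 96, 143 and 290 at stage 5, 471 to 1157 at stage 6, and 165 in grhB37/B37 and 107 in grhB37/+ at 11-12 h. At ems they were 333, 792, 577 and 294 at stage 5, 370 to 1612 at stage 6, and 638 and 303 at 11-12 h. At vvl the grhM+ rank at stage 5, 2381, stood apart from the other early ranks, which ran from 4 to 454, and the late ranks were 85 and 141. The salm region ranked 615 and 365, and the bin3 region 151 and 666, in grhB37/B37 and grhB37/+ at 11-12 h, so the mutant was behind in trn, ems and salm and ahead in vvl and bin3.

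Single regions changed rank between the stages in both directions. All 6 stage 6 ranks were ahead of all 4 stage 5 ranks in 57 regions (7.72%), where the same was true of 11.3 percent of the 10734 regions on chromosomes 2 and 3 with a counterpart in all 10 early lists, and all 4 stage 5 ranks were ahead in 53 (7.18%), against 11.7 percent. The ranks were part of the rule, so nothing is read from these shares. When the regions were ranked by fold enrichment instead, 20 were ahead at stage 6 (2.71%) and 140 at stage 5 (19.0%), against 9.7 and 11.9 percent of the 10734, so the split depends on the measure. The median ratio of stage 5 to stage 6 rank was 0.00 on the log2 scale, with quartiles of −0.74 and 0.80.

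Forward at stage 6 were tup, CG34353, PTP-ER/mahj, Clk and Hacd2. At tup (chr2L:18881075-18881694), a LIM homeobox gene of the dorsal ectoderm, the region between genes ranked 223, 1704, 1198 and 1561 at stage 5. At stage 6 it ranked 6, 8, 9, 7, 41 and 203, and at 11-12 h 173 and 117. Its summit held 188, 86, 88 and 72 fragments at stage 5, and 369, 445, 715, 801, 153 and 110 at stage 6. The region nearest to Clk, 6229 bp away in an intron of CG32369, ranked 2112, 3245, 1690 and 2654 at stage 5 and 62 to 633 at stage 6. Ahead at stage 5 were esg, ASPP, tara, apt and AGO1. At esg (chr2L:15333449-15334101), a zinc finger gene of the Snail family, the ranks were 43, 45, 31 and 94 at stage 5, 153 to 1216 at stage 6, and 101 in grhB37/B37 and 46 in grhB37/+ at 11-12 h. At tara (chr3R:16242284-16242921, in an intron of the gene) they were 96, 129, 200 and 888 at stage 5, 1805 to 2781 at stage 6, and 204 and 721 at 11-12 h. At both esg and tara all stage 5 ranks and both late ranks were ahead of every stage 6 rank.

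**Figure D4:**
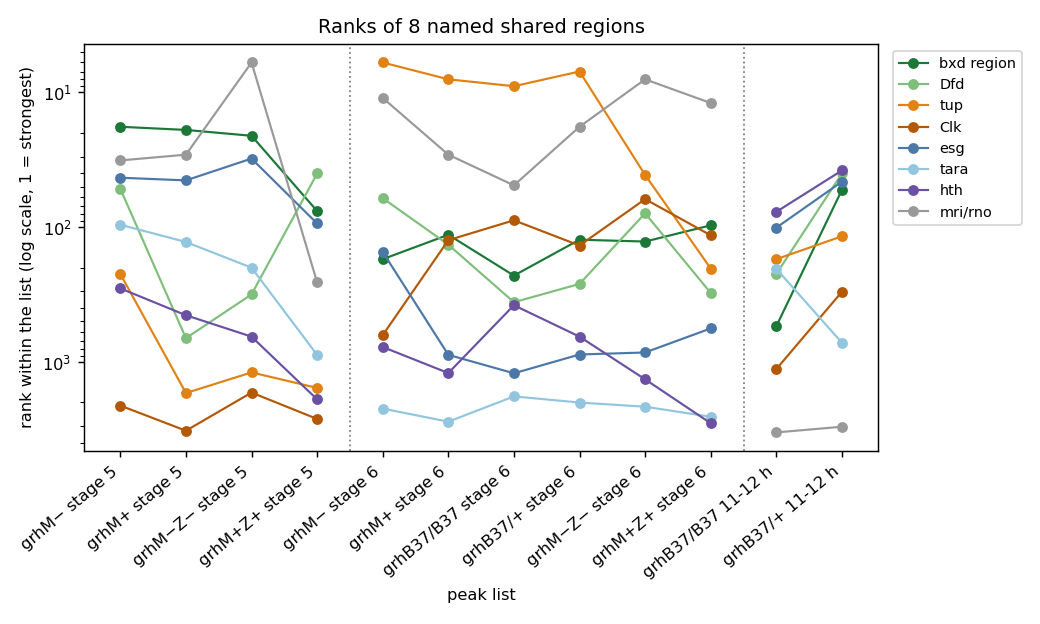
Ranks of 8 named regions (colours) in each of the 12 lists (x axis), on a log scale with rank 1 at the top (y axis). Lines only join the points of a region within a stage; tup and Clk are ahead at stage 6, esg and tara at stage 5, hth at 11-12 h and mri/rno in the early lists.

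Between the early embryos and 11-12 h, all 10 early ranks were ahead of both late ranks in 134 regions (18.2%), against 14.4 percent of the 2834 regions with a counterpart in all 12 lists, and both late ranks were ahead in 54 (7.32%), against 22 percent. The 5 regions with the largest shift forward in the early lists lay at the histone genes His3 and His4, mri/rno, CG4751/RfC38, the lncRNA:alphagamma-element and CG45263. At the histone genes the 10 early ranks ran from 1 to 31 and the late ranks were 1976 and 905, with the limit of repeated genes given above. At mri and rno (chr3L:199115-199892) the early ranks ran from 6 to 257 and the late ranks were 3341 and 3031, and at CG4751 and RfC38, a subunit of the clamp loader of DNA replication, they ran from 20 to 404 against 4886 and 3443. Ahead late were Mob2, CG32486/PAN3, a tRNA cluster in ATP8A, Sdc and hth. At hth (chr3R:10614154-10614842), a homeobox cofactor of the Hox proteins, the early ranks ran from 285 to 2856 and the late ranks were 77 in grhB37/B37 and 38 in grhB37/+. In an intron of Sdc, which encodes syndecan, they ran from 1164 to 4967 against 180 and 339. Age and sequencing protocol cannot be told apart in these shifts.

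Few regions stood on 1 side of the control in every mutant list. In 11 of 738 regions (1.49%) the rank was behind in the mutant in all 6 pairs of mutant and control lists, against 1.45 percent of the 2834 regions with a counterpart in all lists, and in 7 (0.949%) it was ahead in all 6, against 1.38 percent. Ranked by fold enrichment the counts were 3 (0.407%) and 16 (2.17%), against 0.776 and 1.94 percent of the 2834. Over the 5 early pairs alone they were 15 (2.03%) and 14 (1.90%), against 2.47 and 2.51 percent. The median log2 ratio of the mutant rank to the control rank was −0.24 for grhM− at stage 5 and 0.07 at stage 6, 0.12 for grhB37/B37 at stage 6, −0.06 for grhM−Z− at stage 5 and −0.10 at stage 6, where a positive value means that the region stood further down in the mutant list. At 11-12 h it was 0.46, with quartiles of −0.26 and 1.07, and 489 of 738 regions (66.3%) were further down in grhB37/B37, against 0.22 and 57.6% for the 2834 regions. That pair had 1 sample a genotype and its difference has no replicate check, and the median fragments, 51 against 81, moved with it. Over the 331 regions of chromosome 2, which carries grh, and the 407 of chromosome 3 the medians at 11-12 h were 0.44 and 0.48, and in the 5 early pairs the chromosomes differed by −0.25 to 0.23.

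The 11 regions behind in every mutant list were near the share of all regions, 1.49% against 1.45 percent of the 2834. Those named here are examples, and nothing is read from them about Grh. At ss (chr3R:16403085-16404114), a bHLH-PAS factor of antennal identity, the mutant and control ranks were 1360 and 612 for grhM− and 1729 and 1271 for grhM−Z− at stage 5, 727 and 646, 1039 and 367, and 1561 and 1101 for grhM−, grhB37/B37 and grhM−Z− at stage 6, and 1495 and 713 at 11-12 h. RNASEK, CG42542/Kpc1, Ir48c/ths, the latter an FGF ligand, and SNF4Agamma, a subunit of AMP kinase, were the other 4 named by the largest median ratio, which ran from 1.54 to 2.79 over the 5. Ahead in every mutant list were CG10479, kmr, tara, olf413 and a tRNA region at CheA56a, with median ratios of 1.30 to 3.76 in favour of the mutant.

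The grh gene itself held 3 of the regions at its start sites, on 2R. The region 105 bp from a start site (chr2R:17801425-17802306) ranked 523, 572, 180 and 2225 at stage 5, 1476 to 3430 at stage 6, and 3393 in grhB37/B37 and 2388 in grhB37/+ at 11-12 h. The second (chr2R:17822132-17822872) ranked 625, 217, 328 and 742, then 95 to 1356, and then 271 and 276. The other one (chr2R:17823340-17824108) ranked 700, 613, 936 and 1682, then 1659 to 2035, and then 4185 and 3868. At stage 6 the mutant and control ranks interleaved at the first and second region. At the other one the mutant ranks of grhM−, grhB37/B37 and grhM−Z−, 2035, 1981 and 1792, were all behind the control ranks of 1702, 1659 and 1771, while at stage 5 the grhM−Z− rank was ahead of its control. The study called the losses of accessibility in grhB37/B37 at stage 6, mostly on chromosome 2, false positives. It held that the grhB37 chromosome had likely gathered mutations that hindered read mapping. The part of this in mutant ranks on chromosome 2 was not tested.

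Single embryos could be followed in the maternal and zygotic experiment, whose lists keep the peaks of 11 embryos apart. All 738 regions were listed in each of the 11 embryos. Between 705 and 733 of them were among the strongest 5000 of an embryo, and 620 (84.0%) were among the strongest 5000 of all 11. The median rank per embryo ran from 902 to 1161 at stage 5 and from 969.5 to 1418 at stage 6. These embryos contributed to the lists that chose the regions, so the counts describe how far the choice holds in single embryos.

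The distance between the strongest summits was not part of the rule, and it was tested. It is not wholly free of the rule. The summit is that of the row with the highest −log10 q, by which regions were ranked. In each other list the region also had to overlap a grhM+ region of stage 6, which limits the distances. The part of both in the differences below was not tested. In the 10 early lists the summits of a region lay close together, within 50 bp in 303 regions (41.1%) and within 150 bp in 515 (69.8%), while in 99 regions they spanned over 500 bp. For each pair of lists the median distance between the summits of the 738 regions was taken. It ran from 5 bp between grhB37/B37 and grhB37/+ at stage 6 to 18 bp. Lists of the same stage lay 11.7 bp apart on average and lists of different stages 14.8 bp, a difference of 3.10 bp (exact permutation test, two-sided, of stage over 4 and 6 lists, p = 0.00476, the smallest that 210 arrangements can give, adjusted p = 0.0143 over 3 labels). Lists of the same experiment were closer than those of different experiments by 2.16 bp (exact permutation over the 10 lists, p = 0.0159, adjusted p = 0.0238). Lists of the same mutant status were not closer, with 13.9 bp against 12.9 bp (exact permutation over the 10 lists, p = 0.143, adjusted p = 0.143). Each mutant list has a sibling control of the same stage and experiment. These matched pairs, 5 to 13.5 bp apart, all count as different status. The comparison by mutant status therefore mixes in stage and experiment, and nothing is read from it about Grh. In these tests any list could take any label. That a genotype has a list at each stage, and a mutant list its sibling control, was not used. With stage exchanged only within the 4 genotypes that have a list at each stage, an alternative chosen after the data were seen, the difference over 8 lists was 2.37 bp (exact permutation test, two-sided, p = 0.125, the smallest that the 16 arrangements can give). Within the maternal experiment, the distance was 8.50 bp within a stage and 11.5 bp between stages, and within the maternal and zygotic experiment it was 12.8 and 15.0 bp. Median fragments at the summit, which set how well a summit is placed, were 78 to 145.5 at stage 5 and 77 to 408 at stage 6, and their part in the difference was not tested.

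The 11 separately listed embryos gave the same order. Embryos of the same stage lay 14.3 bp apart and embryos of different stages 16.8 bp, a difference of 2.55 bp (exact two-sided permutation over 6 and 5 embryos, p = 0.00217, the smallest that 462 arrangements can give, adjusted p = 0.00433 over 2 labels). By mutant status the difference was 0.427 bp (exact permutation over the 11 embryos, p = 0.336, adjusted p = 0.336). Only the maternal and zygotic experiment entered this test.

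The late summits lay elsewhere. The late lists were 25 bp apart from each other and 58 to 76.5 bp, with a mean of 68.5 bp, from the early lists. At the 661 regions at gene starts, the summit lay upstream of the nearest start site in 73.8 to 81.7% of regions in the early lists, at a median of −47 to −37 bp, and in 60.8% and 57.9% at 11-12 h in grhB37/B37 and grhB37/+, at −27 and −24 bp. The late lists entered no test, since each rests on 1 sample and on single-end reads.

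**Figure D5:**
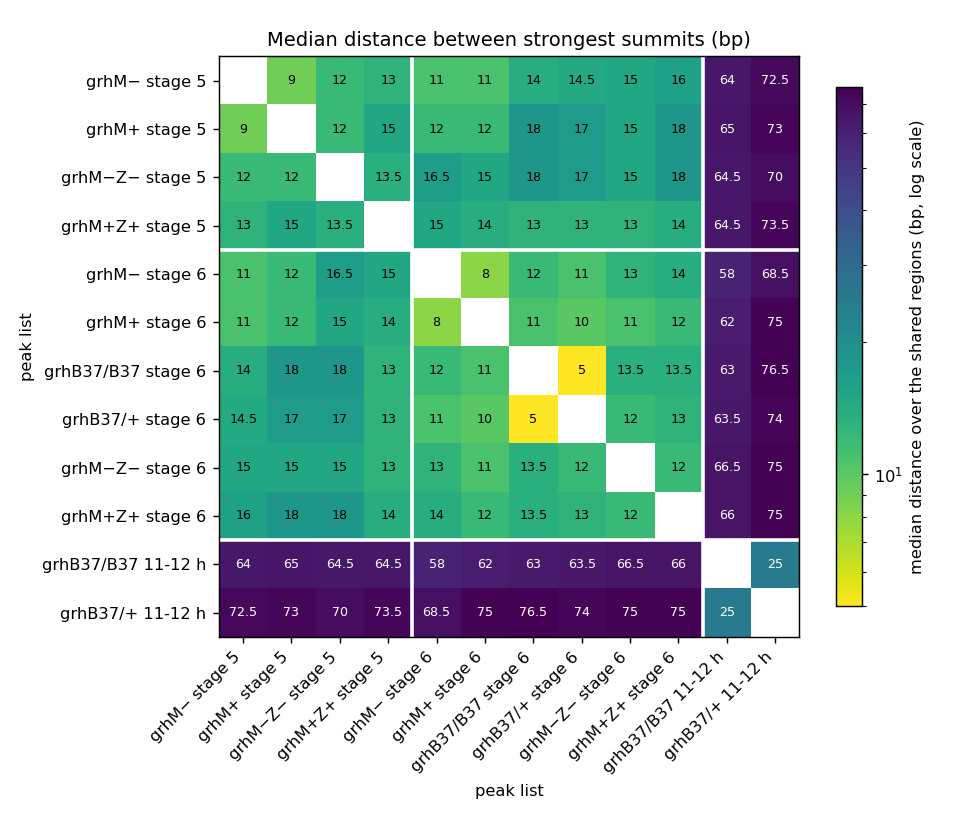
Median distance in bp between the strongest summits of the 738 shared regions for each pair of the 12 peak lists (both axes), with the value printed in each cell and the colour on a log scale; white lines part stage 5, stage 6 and 11-12 h. Pairs of early lists lie 5 to 18 bp apart, the pair of late lists 25 bp and late with early lists 58 to 76.5 bp.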

How the data were processed

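ATAC-seq peak lists of 31 samples in 12 groups were used, 1 list a group. The authors trimmed reads with Trimmomatic 0.36, aligned them to dm6 with Bowtie2, removed reads that were unmapped, aligned to several places or were mitochondrial, and called peaks with MACS2 at q of 0.05 with several summits a peak; bedtools is also named in the submitters' processing notes. The deposited lists hold, per summit, a score (the −log10 q multiplied by 10 and rounded, not used), the fold enrichment over the local background, the −log10 p and the −log10 q, as MACS2 wrote them. Lists of the maternal and zygotic experiment keep rows of 11 embryos apart, and the other lists pool a group's replicates; replicates are separate single embryos. The row names give no replicate number of the labels, so embryos were numbered in the order of those names.

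Rows overlapping by at least 1 bp were joined and ranked by −log10 q. Fragments at a summit were solved from the deposited fold enrichment, read as (pileup + 1) / (background + 1), and the −log10 p, read as a Poisson tail; over the shared regions at least 99.86% of the solved values lay within 0.05 of a whole number. Start sites and features came from Ensembl release 115 without transposable elements, and sequence from the RefSeq copy of the same assembly, whose chromosome lengths no peak exceeded. Intervals of shares are exact at the 95% level (Clopper-Pearson) and hold for counting error alone. Stage, experiment and mutant labels were permuted exactly (two-sided) over lists or embryos to test summit distances, with Benjamini-Hochberg adjustment. The scripts (Python 3.11.15, numpy 2.4.6, pandas 2.3.3, scipy 1.17.1, matplotlib 3.10.9) were tested on simulated data.

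The regions and gene lists were chosen with earlier results of these data known. Named regions were the 10 with the best worst rank, 5 on each side of the threshold, the 5 farthest from a start site and the 5 best over 1 kb away, the 5 with the largest shift in each direction by stage, by age and over the 6 mutant pairs, the 5 best with a Grh string, and those at listed genes; the bithorax regions and the GCCAT string were added after the data were seen. A region carries the names of all genes starting within 1 kb of its summit, or else of the nearest. Sequences on 2R, and a few single items, are not reported here.

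Alternatives were other depths of the strong class, ranking by fold enrichment, other overlap rules, distances and motif windows, the mean distance, and leaving out each list or embryo.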

Additional observations from a re-analysis of the deposited data

Results flagged for a closer look

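The median rank of the 738 regions in the grhM+ list at stage 5 was 1316, while in the other 3 stage 5 lists it ran from 1006 to 1052, so this list stood apart from the others of its stage. The gap to the nearest list was 0.852 of the range over the 4 lists. The ranks were part of the rule, so this describes the list. Of the early lists it also had the fewest regions, 31898, and the lowest −log10 q at the 5000th region, 18.3. Its median fold enrichment at the shared regions, 6.29, was the lowest of the early lists as well. The part of these in its ranks was not tested. The grhM+ list at stage 5 also had the fewest of the strongest regions of grhM+ at stage 6 among its own strongest 5000 of the early lists, 2579 of 4190, against 2862 to 2953 in the other stage 5 lists. It held the worst rank of 92 of the 738 regions. Without it the rule gave 801 regions. In 8 groups of lists or embryos examined in this way, for ranks, widths and summit distances, this was the only value that stood apart, and chance gives about 1 in 20 groups.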

How the results depend on the processing

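The number of shared regions depended on the limits. It was 289 with the strongest 3000 of each list, 1417 with the strongest 8000, 355 when ranked by fold enrichment (294 of them among the 738), 385 when at least 50% of a region had to be covered and 480 when the summits had to lie within 150 bp. Leaving out 1 list or the embryos of 1 number gave 709 to 1056, the highest without grhB37/B37 at 11-12 h. The share at gene starts was 81.98% within 500 bp, 93.36% within 2000 bp, 86.76% when ranked by fold enrichment and 85.19% with 50% covered, and 89.21 to 90.53% when 1 list or embryo number was left out. The number of regions whose stage 5 and stage 6 ranks did not overlap, 110, was 119 to 177 when 1 list was left out, the highest without grhM+Z+ at stage 5, where 79 were ahead at stage 6 and 98 at stage 5. It was 160 when ranked by fold enrichment. The number on 1 side of the control in every pair, 18, was 29 over the 5 early pairs, which are fewer pairs to satisfy. The difference in summit distance between and within stages was 2.52 to 3.83 bp without 1 list (exact permutation p between 0.00794 and 0.0119) and 2.27 to 3 bp without 1 embryo (exact permutation p between 0.00476 and 0.00794), and it stayed on the same side of the threshold with the mean distance, 18.5 bp over lists and 16.0 bp over embryos, and with each other set of regions tried. The alternative with regions of a single summit row in every early list gave no value, since 0 regions met it. The share with GAGAGAG was 17.0% with the strongest 3000, 15.5% with the strongest 8000, 13.5% when ranked by fold enrichment and 23.7% within 100 bp. It was not computed for the rules of 50% coverage and of summits within 150 bp. With stage exchanged only within genotype, chosen after the data were seen, the difference in summit distance between and within stages over lists was 2.37 bp (exact permutation p = 0.125, the smallest that design allows). No paired analysis was possible by replicate number because the lists pool the embryos of a group, and the row names of embryos listed apart carry no replicate number of the labels.

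The late lists had the lowest median fold enrichment at the regions, 2.93 and 4.04, and the 5000th region of grhB37/B37 stood at a −log10 q of 4.16; the part of depth in this was not tested. With 1 sample a genotype at 11-12 h, differences there have no replicate check.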
